A study of Mus musculus with 24 samples.

Results

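Rcan2 and the other genes of the calcineurin system were followed through hypothalamus SAGE-Seq libraries of 24 mice. The genes were chosen by name, and 7 of the 13998 genes in the table belonged to them, namely Rcan2, Rcan1, Rcan3, Ppp3ca, Ppp3cb, Ppp3cc and Ppp3r1. Each library came from 1 adult male F2 mouse, bred by intercrossing the F1 offspring of C57BL/6J (B6) dams and 1 sire of the B6.CAST-17.1 congenic strain. Of these mice, 12 were cast/cast and 12 were b6/b6 across a subcongenic segment of Chr 17, where the cast allele is DNA of the wild-derived strain CAST/EiJ, and all were b6/b6 elsewhere in the genome. Every mouse had completed a 10 d test of choice between a carbohydrate/protein (C/P) and a fat/protein (F/P) diet, had returned to chow, and was killed about 48 h after both diets were given again. The cast/cast mice had been picked for the highest and the b6/b6 mice for the lowest C/P intake, so genotype and intake cannot be told apart. Rcan2 was the only 1 of the 7 genes inside the CAST segment.

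Calcineurin is the protein phosphatase that responds to calcium and calmodulin. It consists of a catalytic A subunit, encoded by Ppp3ca, Ppp3cb or Ppp3cc, and a calcium-binding regulatory B subunit, encoded in most tissues by Ppp3r1. In neurons it removes phosphate from channels, receptors and the transcription factors of the NFAT family, which then enter the nucleus. The Rcan proteins (regulators of calcineurin) bind the catalytic subunit and adjust its activity, and a short Rcan1 transcript is itself a known NFAT target. Rcan2 was first described as a gene induced by thyroid hormone and has been linked to food intake and body weight in mice.

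SAGE-Seq counts 1 short tag per transcript, read from the CATG site of NlaIII nearest the 3′ end, so what stood for each gene was a stretch of 27 bases. The tags below were read from GENCODE transcripts of GRCm38 to show how much of each gene the libraries could see and whether tags of related genes can be confused. The capitals mark the CATG.
Rcan2, first transcript: CATGatgctcattatgcaaacctcttt
Rcan2, second transcript: CATGgaaagactagaaatagtggcgag
Rcan1, both transcripts: CATGctttggggactccggaggtggct
Rcan3: CATGtctgtaatcccctggtctgtgca
Ppp3ca, shorter transcript: CATGaaaaataaaaataaaaaaagagg
Ppp3ca, longer transcript: CATGaaggactgatttaagaaaccaga
Ppp3cb: CATGtgcaaagctccaggttctacacc
Ppp3cc: CATGgaaagaaagccctgtaatgactc
Ppp3r1: CATGttgtgaaatctttagagaacttc
None of these tags was the 3′-most tag of another gene, and their letters occurred in the transcripts of 0 other genes, so the 3 Rcan genes and the 3 catalytic subunit genes were separable. The first Rcan2 tag lies at chr17:44039363-44039389 on the + strand, in the 3′ UTR, 154 bases from the transcript's end. The second lies at chr17:44038880-44038906, also in the 3′ UTR. Both Rcan1 transcripts carry the same tag at chr16:92392152-92392178 on the - strand, so the calcineurin-responsive short form could not be told from the long form. The Ppp3cc tag at chr14:70218078-70218104 is the only 1 of the set in coding sequence. The shorter Ppp3ca transcript has its tag at chr3:136935362-136935388 and the longer at chr3:136937088-136937114. The longer transcript is not listed in the data that the authors provide, and whether its tags were counted for Ppp3ca is not known. Levels of Ppp3ca below, and the shares and ratios that use them, carry this limit. Which of the possible tags was counted for a gene is not given in the sources used here, so comparisons of level between genes rest on the 3′ ends that the reference holds.

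Depth ranged from 7754202 to 13082873 tag hits per mouse, the median being 10383038 for cast/cast libraries and 10032338.5 for b6/b6, and values below are tag hits divided by the size factor of the library (normalized counts). At this depth the 7 genes were read with 33 (Ppp3cc) to 16280 (Ppp3r1) tag hits in a mouse. The libraries did not form a single cloud. On the first principal component (PC1) of 9127 genes off Chr 17 and outside the gene lists, which took 39.4% of their variance, 12 libraries (the lower set, 8 cast/cast and 4 b6/b6) lay between -0.16 and -0.06 and 10 (the upper set, 4 cast/cast and 6 b6/b6) between 0.06 and 0.44. The other two, b6/b6 replicates 6 and 12, lay beyond the lower set on PC1, between -0.32 and -0.30, and stood apart on the second component, so they were put in neither set. Genotype differences of the 7 genes are given with and without them. Study number, the running number of the mouse in the intake study, was 121 or lower in 8 of the lower set, 2 of the upper set and both of the other libraries, and 7 of the 12 cast/cast but 5 of the 12 b6/b6 mice had such a number.

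Rcan2 did not pass the test for a genotype difference, although it lies inside the segment. Whether the cast allele alters a tag or its CATG site, which would change the count without a change in expression, was not checked for Rcan2 or for any other gene of the segment. Its normalized counts were 917 in the lowest b6/b6 mouse, 1694 at the median and 2665 in the highest. In cast/cast mice they were 898, 1347 and 2149. The ranges overlapped almost entirely, but 9 of 12 cast/cast mice lay below the b6/b6 median. Means were 1730 ± 522 (SD, n = 12) in b6/b6 mice, against 1422 ± 368 (n = 12) in the cast/cast group, a log2 difference of -0.26 (SE 0.17, 95% interval -0.61 to 0.09, limma P = 0.134, adjusted P = 0.664). On the scale of log2(normalized count + 1) that interval runs from 0.654 to 1.06 of the b6/b6 level, so a 1.5-fold fall lay inside it and a 1.5-fold rise outside. Both far b6/b6 libraries were high in Rcan2, at 2070 and 2665, and without them the log2 difference was -0.16 (SE 0.17, P = 0.343 by limma). In bulk tissue, fewer cells of a type and less RNA per cell cannot be told apart.

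Rcan1 and Rcan3, on Chr 16 and Chr 4, also did not pass the test. Rcan1, the family member best known for feedback on calcineurin, ranged from 1056 through a median of 1673 to 2430 normalized counts in b6/b6 mice, while the cast/cast group ran from 1281 through 1924 to 3214. In 3 cast/cast mice Rcan1 stood above every b6/b6 mouse. Its means were 1669 ± 416 in b6/b6 mice, against 2063 ± 614 in the cast/cast group (n = 12 each), with a log2 difference of 0.29 (SE 0.16, limma P = 0.0775, adjusted P = 0.621), and without the far libraries 0.20 (limma P = 0.219). Rcan3, the least abundant of this family, ranged from 335 through 414 to 674 in b6/b6 mice, while the cast/cast group ran from 150 through 368 to 559. The 5 lowest mice were all cast/cast, and the 2 highest were the far b6/b6 libraries, at 606 and 674. Its log2 difference was -0.35 (SE 0.18, limma P = 0.0665, adjusted P = 0.616), and -0.24 (P = 0.198) without those libraries.

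Ppp3cb, the catalytic subunit Aβ, had the largest difference of the 7, and it was smaller without the far libraries. In b6/b6 mice it ran from 230 through a median of 358 to 1610 normalized counts, and in cast/cast mice from 163 through 303 to 425. The values of 686 and 1610 came from b6/b6 replicates 6 and 12, and the next highest b6/b6 mouse was at 465. The mean was 1.62-fold lower in cast/cast mice (299 ± 72.8 against 484 ± 374, n = 12 each), with a log2 difference of -0.51 (SE 0.23, limma P = 0.0343, adjusted P = 0.600). Without the 2 libraries the b6/b6 mean was 351 ± 76.1 (n = 10) and the log2 difference -0.25 (SE 0.16, limma P = 0.130).

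The remaining subunit genes had genotype differences smaller than their spread between mice. Ppp3ca, the catalytic subunit Aα that predominates in brain, ran from 260 through 517 to 717 normalized counts in b6/b6 mice, while the cast/cast group ran from 258 through 411 to 705, so the ranges coincided (log2 difference -0.14, SE 0.20, limma P = 0.481). Without the far libraries that difference was -0.23 (limma P = 0.258). Ppp3cc, the Aγ subunit known mainly from testis, ran from 69.6 through 94.3 to 176 in b6/b6 mice, while the cast/cast group ran from 39.2 through 132 to 225. Its log2 difference was 0.08 (SE 0.24, limma P = 0.752), or 0.0096 without the far libraries (limma P = 0.970), with 3 cast/cast mice below and 1 above every b6/b6 mouse. Ppp3r1, the regulatory B subunit, ran from 3916 through 7611 to 12810 in b6/b6 mice, while the cast/cast group ran from 3187 through 5128 to 12065. Its log2 difference was -0.21 (SE 0.23, limma P = 0.365), or -0.23 without the far libraries (limma P = 0.353), and the cast/cast median fell in the lower part of a range that both genotypes spanned.

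**Figure D1:**
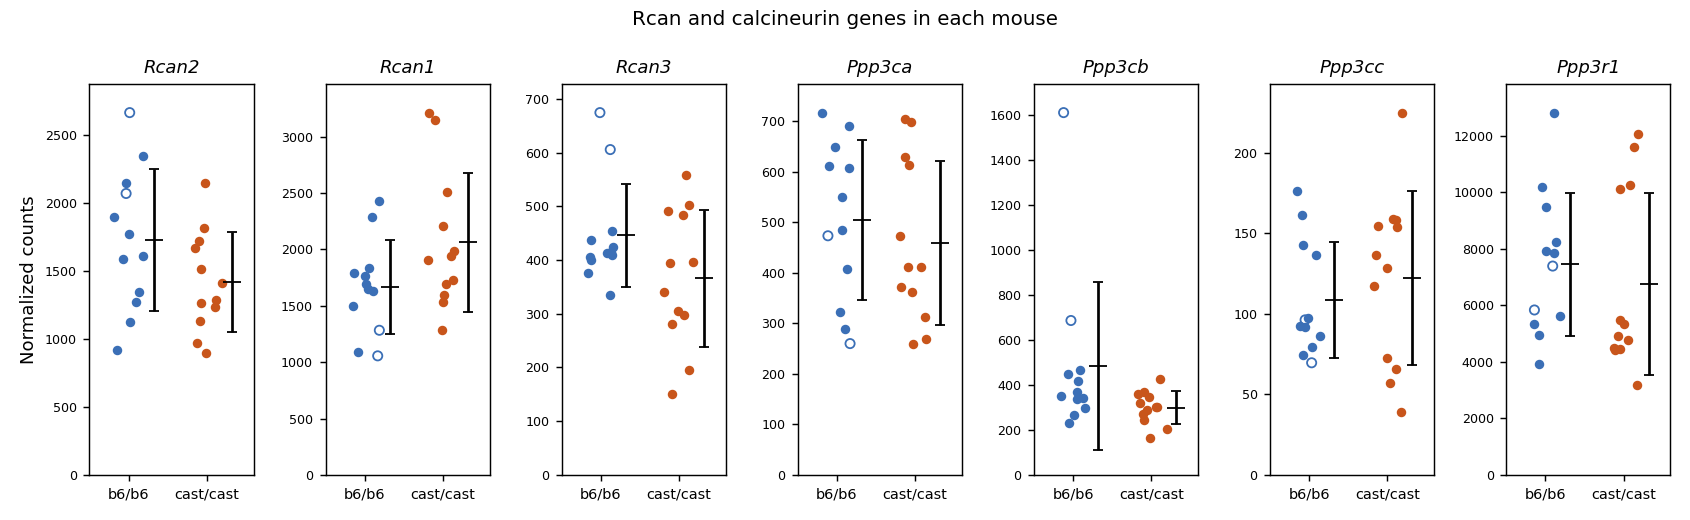
Normalized counts (linear axis from 0, a separate scale for each gene) of the 7 genes in each b6/b6 (blue) and cast/cast (orange) mouse, 1 point per mouse, with the mean and SD of the 12 mice as a black bar and open circles for b6/b6 replicates 6 and 12. The genotypes overlap for every gene, and the 2 open circles are the highest b6/b6 values of Ppp3cb (686 and 1610) and Rcan3 (606 and 674).

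A gene was called when the limma P was at most 0.01 and the ratio of means at least 1.5 in the same direction, the thresholds of the study. By this rule 1.49% of all tested genes were called (208 of 13998), and 0 of the 7 calcineurin genes were. At an unadjusted P of at most 0.05, which 8.13% of all genes reached, there was 1 (Ppp3cb). The edgeR quasi-likelihood test and DESeq2 on recovered tag hits, which called 2.79% and 2.82% of all genes, each called 1 of the 7, again Ppp3cb (log2 differences -0.69 and -0.70, P = 0.00932 and 0.00688). In 0 of the 7 were the genotypes without overlap, against 0.336% of all genes. Of the 7 log2 differences 5 were below 0 and 2 above, with a median of -0.21, beside -0.02 over all tested genes.

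**Figure D2:**
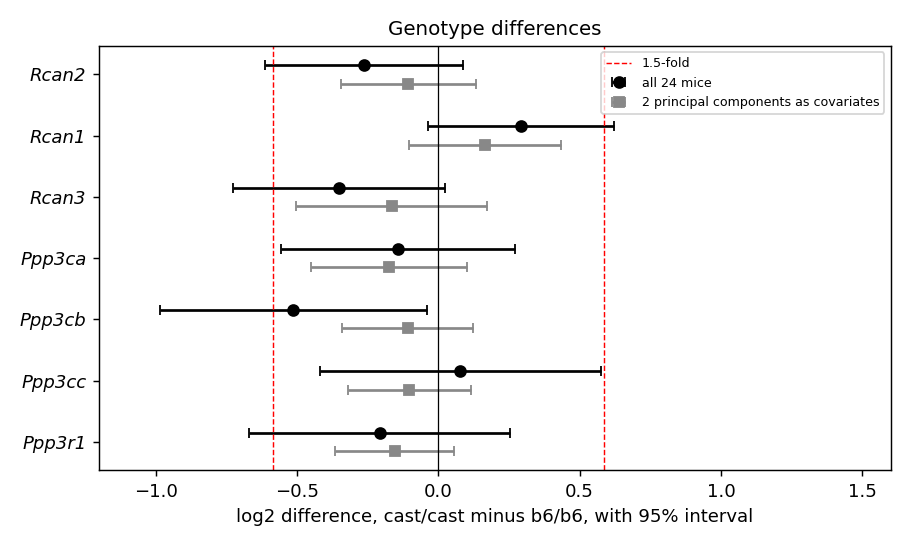
The log2 difference (cast/cast minus b6/b6, on log2(normalized count + 1)) of each gene with its 95% interval from limma, for all 24 mice (black circles) and with 2 principal components of other genes as covariates (grey squares). The interval of Ppp3cb excludes 0 over all mice (-0.99 to -0.04) but not with the covariates (-0.34 to 0.12), and the intervals of the other genes cross 0 in both fits; red dashed lines mark 1.5-fold.

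With 2 principal components of the other genes as covariates, the log2 difference was -0.11 (SE 0.12, limma P = 0.368) for Rcan2 and -0.11 (SE 0.11, P = 0.343) for Ppp3cb. Rcan3 was the gene whose genotype difference moved most with study number. Its log2 difference was -0.80 (SE 0.30, limma P = 0.0171) among the 12 mice numbered up to 121 (7 cast/cast, 5 b6/b6) and 0.13 (SE 0.16, P = 0.452) among the 12 numbered from 197 (5 cast/cast, 7 b6/b6). The difference between these values, 0.92 (SE 0.34), had a limma interaction P of 0.0108 and an adjusted P of 0.337, and so did not pass after adjustment over all genes. For Rcan2 the values in mice numbered up to 121 and from 197 were -0.15 (limma P = 0.566) and -0.40 (limma P = 0.121), and the interaction P was 0.489 by limma.

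The balance between Rcan genes was then compared within each mouse, where the size factor of the library cancels. Rcan2 made up 30.3% of the summed Rcan counts in the lowest b6/b6 mouse, 40.3% at the median and 62.2% in the highest. In cast/cast mice its share was 30.2%, 37.2% and 49.0%. The cast/cast shares lay within the b6/b6 range except for the lowest, and 10 of 12 were below the b6/b6 median. The mean share was 44.5 ± 10.6% for b6/b6 against 37.2 ± 5.66% for cast/cast mice (SD, n = 12 each). The difference of -7.32 points had a permutation P of 0.0445 (two-sided), which became 0.0890 after adjustment over the 2 shares compared. Without the 2 far b6/b6 libraries the difference was -4.93 points (permutation P = 0.162). Put as a ratio, log2 of Rcan1 over Rcan2 was 0.53 ± 0.34 for cast/cast against -0.03 ± 0.73 for b6/b6 mice (n = 12 each, permutation P = 0.0230), and the difference of 0.56 became 0.36 (permutation P = 0.0964) without the far libraries. Rcan1 exceeded Rcan2 in 11 of 12 cast/cast and 7 of 12 b6/b6 mice.

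The Ppp3ca share of the catalytic subunit counts did not differ beyond the spread between mice. The shares of Ppp3cb and Ppp3cc were not tested. Ppp3ca made up 47.6 ± 12.8% of the summed Ppp3ca, Ppp3cb and Ppp3cc counts for b6/b6 against 50.9 ± 7.99% for cast/cast mice (n = 12 each, permutation P = 0.468). The medians stood in the other order, at 50.4% for b6/b6 against 47.3% for cast/cast mice. Without the far libraries the sign turned, to -1.62 points (permutation P = 0.608). Ppp3r1, whose product pairs with any of them, had 3.43 to 11.2 times the summed catalytic counts, with a median of 6.89 over the 24 mice.

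Across all mice the genes spanned levels from Ppp3r1 down to Ppp3cc. SAGE gives 1 tag per transcript whatever its length, so these normalized counts were compared without division by length. Ppp3r1 was highest, with a mean of 7104, and exceeded Rcan1 (1866) in 24 of 24 mice. Rcan1 and Rcan2 (1576) did not differ beyond their spread, Rcan1 being higher in 18 of 24 (permutation of signs within mice, adjusted P = 0.0768). Rcan2 exceeded Ppp3ca (482) in 24 of 24. Ppp3ca, Rcan3 (406) and Ppp3cb (391) formed a group in which neighbours did not differ (permutation adjusted P = 0.0768 and 0.152), and Ppp3cb exceeded Ppp3cc (115) in 23 of 24. Of the 6 neighbouring pairs 3 passed at an adjusted P of 2e-05, the raw value of 1e-05 being the smallest that 100000 resamples can give. Among cast/cast mice alone 5 of 6 pairs passed, Rcan1 over Rcan2 among them (11 of 12 mice, permutation adjusted P = 0.00234). Among b6/b6 mice alone 3 passed, and Rcan2 was above Rcan1 by mean but in 5 of 12 mice (permutation adjusted P = 0.881).

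The lower and upper sets of libraries also differed in the range of 4 calcineurin genes. In the 12 libraries of the lower set Ppp3r1 lay between 3187 and 5615 normalized counts, and in the 10 of the upper set between 7839 and 12810. Ppp3ca lay between 258 and 484 in the former and between 551 and 717 in the latter. Rcan2 ran from 898 to 1515 in the former and from 1588 to 2347 in the latter. Ppp3cc went the other way, from 117 to 225 in the former and from 39.2 to 97.7 in the latter. The far b6/b6 libraries, although lowest on PC1, had Rcan2 at 2070, within the range of the upper set, and at 2665, above it. Their Ppp3cc, at 96.2 and 69.6, was within the range of the upper set. Their Ppp3ca, at 260 and 473, was within that of the lower set. Over all 24 libraries r with PC1 was 0.39 for Rcan2, 0.79 for Ppp3r1, 0.76 for Ppp3ca and -0.70 for Ppp3cc. The median absolute r with PC1 over 9996 genes was 0.53. The 4 genes did not overlap between the 2 sets of libraries, which was so for 8.6% of the 9996 genes with a mean of at least 50, while Rcan1, Rcan3 and Ppp3cb overlapped. Both sets held mice of both genotypes, and their depths overlapped, at 9307269 to 11212859 and 8542862 to 13082873 tag hits. The sets were drawn from the data and are not groups of the study, so no test was made between them, and the part of study number in the split was not tested.

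**Figure D3:**
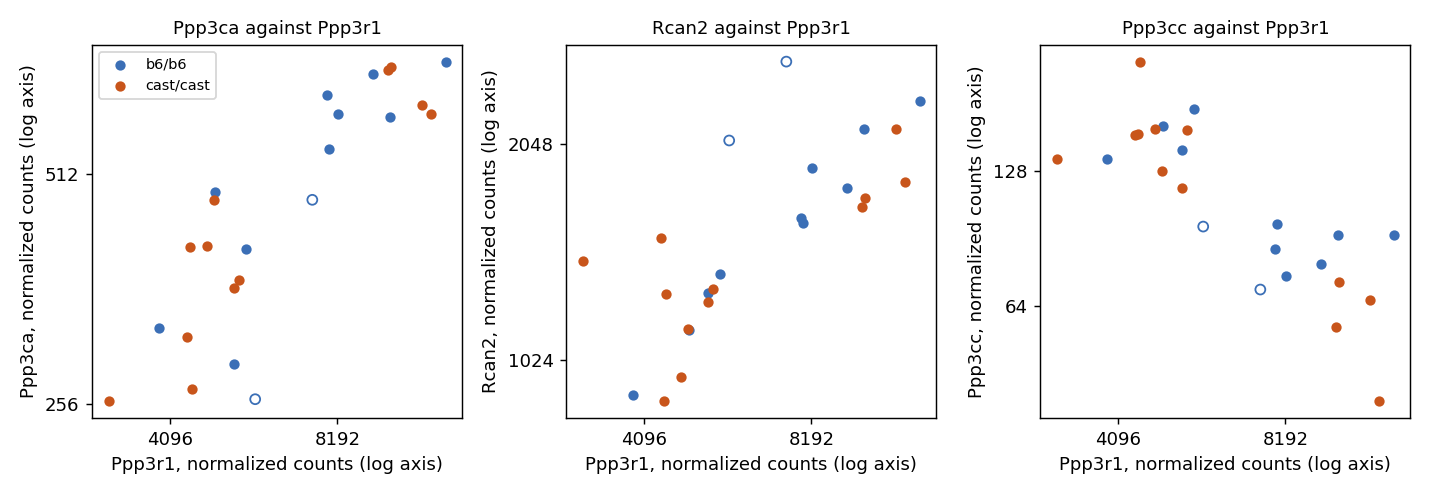
Normalized counts (log axes) of Ppp3ca, Rcan2 and Ppp3cc against Ppp3r1, 1 point per mouse, b6/b6 in blue, cast/cast in orange and open circles for b6/b6 replicates 6 and 12. The mice fall into a set with Ppp3r1 up to 5615 and a set from 7839 upward, both of mixed genotype, with Ppp3ca and Rcan2 higher and Ppp3cc lower in the second; the open circles lie between these sets on the Ppp3r1 axis.

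Over all 24 mice, centred within genotype, 10 of the 21 pairs of genes had an adjusted permutation P of at most 0.05, but such values span the separate sets of libraries, so correlations are given within each set. The correlations within each set were not centred, and each set held both genotypes, so they include any difference between genotypes. Of 42 such correlations, 21 pairs in each set, 1 passed after Benjamini-Hochberg adjustment. Ppp3ca and Ppp3cb, the catalytic subunits most used in brain, rose and fell together in the 12 libraries of the lower set (Pearson r = 0.92, permutation P = 1e-05, the smallest possible, adjusted P = 0.00042, Spearman rho = 0.96, permutation P = 1e-05). Without the 2 libraries farthest from the median Ppp3ca level, r was 0.90. How common such an r is among other genes within the set was not computed. Over all 24 mice, centred within genotype, r of this pair was 0.32. Of the 9995 genes compared there, 64.2% had an r at least as far from 0. In the 10 libraries of the upper set r of Ppp3ca with Ppp3cb was -0.29 (permutation P = 0.404, rho = -0.27, permutation P = 0.446), and the difference between the sets was not tested. In those 10 libraries the value farthest from 0 was that of Rcan1 with Ppp3cb (r = -0.79, permutation P = 0.00692, adjusted P = 0.108, rho = -0.77, permutation P = 0.0130). There Rcan2 with Ppp3r1 had an r of 0.69 (permutation P = 0.0306, adjusted P = 0.257, rho = 0.72, permutation P = 0.0227), which became 0.40 without the 2 farthest libraries.

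**Figure D4:**
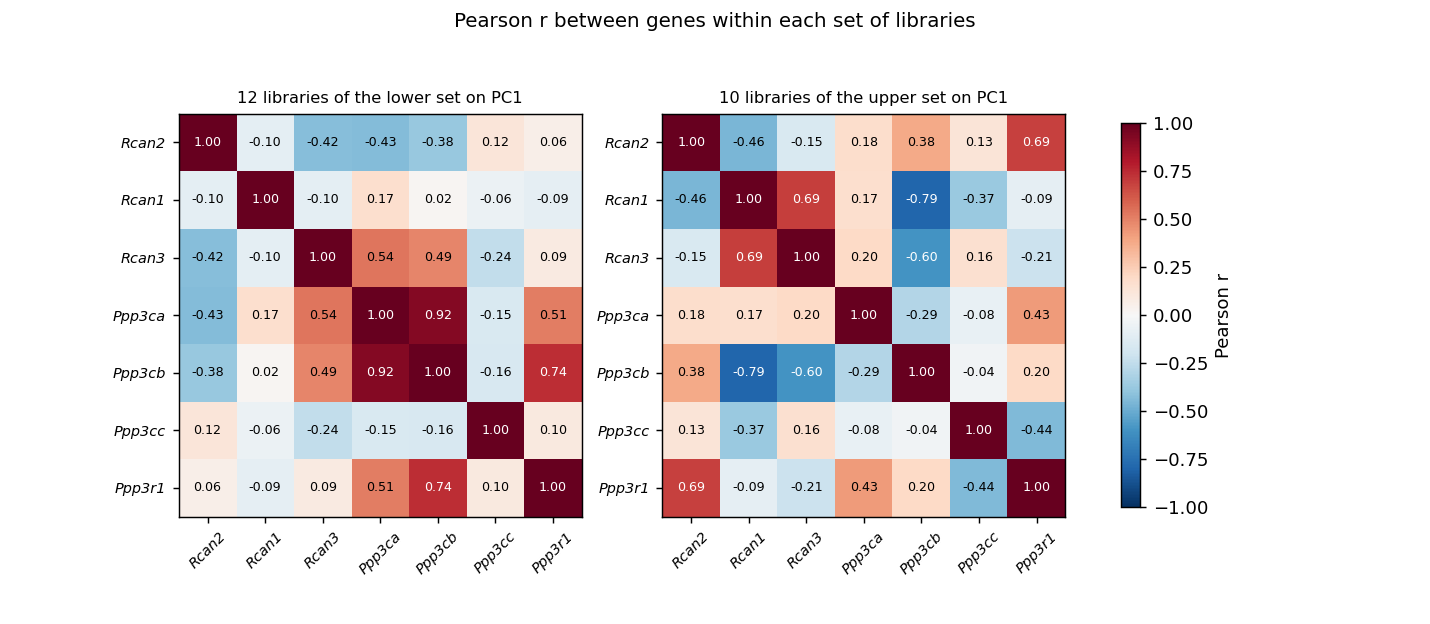
Pearson r between the log2 normalized counts of each pair of genes (rows and columns), within the 12 libraries of the lower set on PC1 (left) and the 10 of the upper set (right), b6/b6 replicates 6 and 12 left out, on a colour scale from -1 to 1. Ppp3ca with Ppp3cb on the left, at 0.92, is the only pair that passed after adjustment.

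The genes whose levels followed Rcan2 and Ppp3ca most closely, centred within genotype, were found among 9995 others over the 24 mice. For Rcan2 these were Arf2 (r = 0.91), an ADP-ribosylation factor, Celf3 (0.90), a neuronal splicing regulator, and Skp1a (0.89), a subunit of SCF ubiquitin ligases. For Ppp3ca they were Cand1 (0.91), a regulator of cullin ligases, the cadherin gene Cdh22 (0.88) and Rgs17 (0.88), a regulator of G-protein signalling. These values span the 2 sets of libraries. Within the sets they were 0.60 and 0.79 for Arf2, 0.51 and 0.87 for Celf3 and 0.77 and 0.51 for Skp1a with Rcan2. With Ppp3ca they were 0.80 and 0.39 for Cand1, 0.25 and 0.38 for Cdh22 and 0.61 and 0.50 for Rgs17.

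Intake was compared with each gene within genotype, to look for relations that genotype does not set. Of 28 correlations (7 genes, 2 genotypes, total and C/P kcal), 7 had an unadjusted permutation P of at most 0.05 by Pearson r and 4 by Spearman rho, and 0 passed after adjustment. These correlations span the separate sets of libraries and, in b6/b6 mice, include the far libraries, and they were not computed within the sets. Among b6/b6 mice the far replicate 12 had both the highest Rcan2 and the lowest C/P intake. For Rcan2, r with C/P intake was -0.72 in b6/b6 mice (n = 12, permutation P = 0.00807, adjusted P = 0.0861, rho = -0.66, permutation P = 0.0235, adjusted P = 0.165), and -0.68 without the 2 mice farthest from the median intake. In cast/cast mice it was -0.09 (permutation P = 0.781, rho = 0.01, permutation P = 0.969), and the difference between the genotypes was not tested. The lowest adjusted P by Pearson r was that of Rcan3 with total intake in cast/cast mice (r = -0.78, permutation P = 0.00298, adjusted P = 0.0834, rho = -0.74, permutation P = 0.00781, adjusted P = 0.0729). By rho, Ppp3cb (-0.76, permutation P = 0.00565) and Ppp3ca (-0.75, permutation P = 0.00699) had the same adjusted P there. Ppp3ca there (r = -0.70) and Ppp3cb with C/P intake in b6/b6 mice (r = -0.75) had the permutation adjusted P of Rcan2, 0.0861. Rcan1 with C/P intake in b6/b6 mice had the other sign (r = 0.60, permutation adjusted P = 0.164).

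Several genes beside Rcan2 on Chr 17 were called. Rcan2 spans 43801352 to 44039516 on Chr 17 (RefSeq, GRCm38.p6), in the mapped interval in which 26.7% of tested genes were called (60 of 225). Within 1 Mb of it 11 genes were tested and 5 called, 4 lower and 1 higher in cast/cast mice. Pla2g7, which encodes a phospholipase that degrades platelet-activating factor, fell from 773 ± 344 to 6.18 ± 2.97 normalized counts (log2 difference -6.73). E130008D07Rik fell from 34.4 ± 13.1 to 2.59 ± 2.40 (log2 difference -3.47), and for both genes the genotypes did not overlap. Cyp39a1, an oxysterol hydroxylase gene 50.4 kb below Rcan2, fell from 23.0 ± 11.9 to 10.2 ± 5.52 (log2 difference -1.12, limma adjusted P = 0.0670). Slc25a27, which encodes a mitochondrial carrier of brain, fell from 58.0 ± 42.8 to 26.3 ± 12.5 (log2 difference -1.01, limma adjusted P = 0.201), with a log2 difference of -0.69 without the far libraries. Enpp4, of the ectonucleotide pyrophosphatase family, rose from 323 ± 53.3 to 534 ± 215 (log2 difference 0.65, limma adjusted P = 0.0837). Enpp5, the nearest gene at 39.3 kb, missed the ratio of 1.5 (994 ± 234 to 695 ± 113, log2 difference -0.50, limma adjusted P = 0.0941). Cd2ap, Tnfrsf21, Gpr116, Clic5 and Runx2 were not called, with log2 differences from -0.56 to 0.61. Without the far libraries Cd2ap moved from -0.28 (limma P = 0.198) to -0.47 (limma P = 0.0234), Tnfrsf21 from -0.56 to -0.32 and Runx2 from 0.61 (limma P = 0.0251) to 0.37 (limma P = 0.109).

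**Figure D5:**
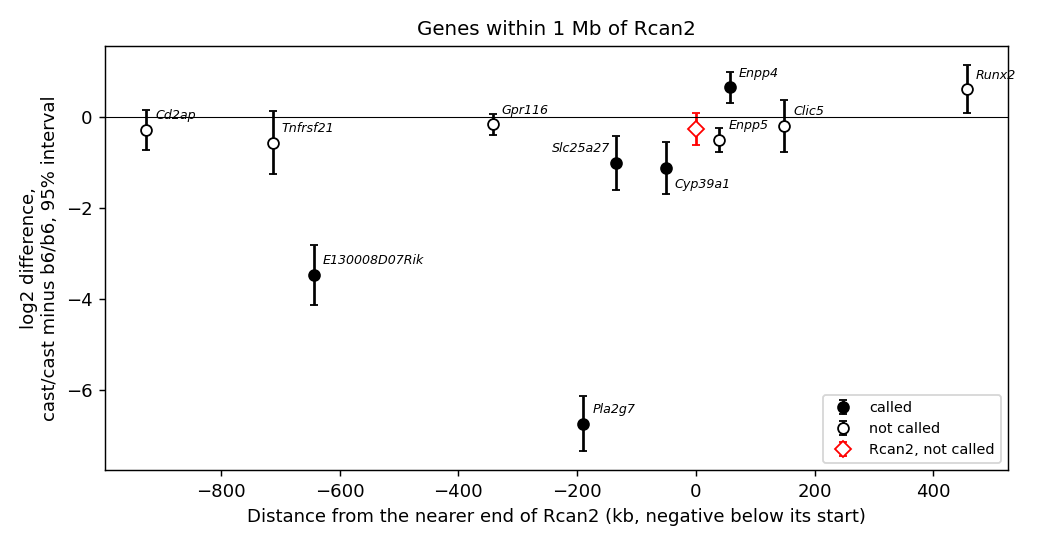
The log2 difference (cast/cast minus b6/b6, 95% interval from limma) of the 11 tested genes within 1 Mb of Rcan2 against their distance in kb from its nearer end, filled where called and open where not, with Rcan2 as a red diamond at 0. Pla2g7 (-6.73) and E130008D07Rik (-3.47) lie far below the rest. By position Rcan2 (-0.26) sits between Cyp39a1 (-1.12) and Enpp5 (-0.50), and its log2 difference is above both.

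The partners of calcineurin were taken from lists of calmodulins, binding proteins and inhibitors, NFAT factors, the kinases that oppose them, substrates, and thyroid hormone genes. Of 59 genes listed 50 were tested, and 0 were called by limma, with 3 at an unadjusted P of at most 0.05, while edgeR called 1 (Thra) and DESeq2 1 (Prkar2a). Over all genes the corresponding shares were 1.49%, 8.13%, 2.79% and 2.82%. Their log2 differences were below 0 for 31 and above 0 for 19, with a median of -0.09. All 3 calmodulins were tested, and Calm2, the most abundant, had 56546 ± 21568 normalized counts in b6/b6 mice, against 60113 ± 21787 in the cast/cast group (log2 difference 0.08). All 5 NFAT factors were tested, with log2 differences from -0.18 to 0.32, and Nfatc2 was the most abundant at 311 ± 57.9 and 300 ± 57.0. The 7 kinases tested, which include Dyrk1a, Gsk3b and the most abundant, Csnk1d, all had differences below 0, from -0.55 to -0.10, none of which passed.

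Among 8 binding proteins and inhibitors the most abundant was Ppia, cyclophilin A, through which cyclosporin inhibits calcineurin (log2 difference 0.30, SE 0.40). Of 18 substrates, Prkar2a, a regulatory subunit of protein kinase A (-0.71, limma P = 0.0418, adjusted P = 0.607), and the transcription factor gene Mef2a (-0.64, limma P = 0.0441, adjusted P = 0.607) had a P of at most 0.05 but were not called. Both were highest in the far libraries, and without these the differences were -0.33 (limma P = 0.214) for Prkar2a and -0.44 (limma P = 0.155) for Mef2a. The most abundant substrate was Gap43, a growth cone protein (log2 difference 0.15, SE 0.26). Of 9 thyroid hormone genes, Hr, a corepressor induced by thyroid hormone, had 754 ± 230 and 1287 ± 1284 normalized counts (log2 difference 0.53, limma P = 0.0381, adjusted P = 0.607) and was not called. One cast/cast mouse held 5326, the medians were 733 and 924, and without that mouse the ratio of means moved from 1.71 to 1.22. The receptor genes Thra and Thrb had log2 differences of -0.59 (SE 0.34) and -0.30 (SE 0.22), which were -0.11 and -0.13 without the far libraries. Thra reached 1753 in 1 of those libraries, against medians of 154 in b6/b6 and 148 in cast/cast. The most abundant of these genes, Nrgn, had a log2 difference of 0.30 (SE 0.22).

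Markers of cell types and neighbouring regions were read beside these results. Of 48 tested in 10 lists, 1 was called by limma, and 3 had a P of at most 0.05, beside 1.49% and 8.13% of all genes. Of the 48, edgeR called 2 (Mag and Tcf7l2) and DESeq2 1 (Tcf7l2). The called gene was Tcf7l2, a transcription factor of thalamus, at 206 ± 138 in b6/b6 mice, against 105 ± 57.9 in the cast/cast group (log2 difference -0.84, limma P = 0.00710, adjusted P = 0.449). Of the 5 thalamus markers tested, 3 had log2 differences above 0 and 2 below, with a median of 0.04 and a highest value of 0.08. The summed thalamus markers, of which Tcf7l2 was the most abundant, ran from 233 to 996 in b6/b6 mice, while the cast/cast group ran from 261 to 501. The hypothalamic list was present in every mouse, with sums from 10354 to 28317 in b6/b6 mice, while the cast/cast group ran from 5423 to 31516, with Pmch, the gene of melanin-concentrating hormone, as its most abundant member. The most abundant markers of neurons (Snap25), astrocytes (Slc1a2), oligodendrocytes (Mbp), microglia (Cx3cr1), striatum (Penk) and choroid plexus (Kl) had log2 differences from -0.18 (Kl) to 0.21 (Mbp), and none was called. Other markers of these lists lay farther from 0. Mag, of oligodendrocytes, had a log2 difference of -0.92 (limma P = 0.0509), which was -0.36 (limma P = 0.269) without the far libraries. Aif1, of microglia, which itself lies in the mapped interval of Chr 17, had one of 0.56 (limma P = 0.0411), which was 0.32 (limma P = 0.177) without them. Of the 5 microglia markers 3 had log2 differences above 0 and 2 below, the lowest being Csf1r at -0.17. Neurod2, of cortex and hippocampus, stood at 4.87 ± 5.04 in b6/b6 against 11.8 ± 8.98 in cast/cast mice (log2 difference 1.18, limma P = 0.0417, adjusted P = 0.607), with 6 cast/cast mice above every b6/b6 mouse. Summed pituitary markers ran from 0 to 469.8 and from 0 to 265, with Gh at 0 in the lowest mouse of each genotype. The part of these markers in the levels of the calcineurin genes was not tested.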

How the data were processed

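One SAGE-Seq library per mouse was analysed for 12 cast/cast and 12 b6/b6 mice, grouped by the genotype in the labels. The signal values deposited for a gene are its tag hits, scaled by DESeq size factors. To obtain them, the authors matched tags to mouse RefSeq mRNA and GRCm38 with a modified SOLiD SAGE pipeline. Other columns hold comparisons that the authors deposited, namely pooled means, a ratio (fold change), its log2 and p-values, and none was used here. The 19529 rows reduced to 13998 genes, duplicates being identical. In every library 100% of values were whole multiples of 1 step (tolerance 0.01), which gave back the tag hits. No 2 of the 276 pairs of libraries were alike within sampling noise (lowest chi-square per degree of freedom 14.6).

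The main test was limma 3.58.1 (trended eBayes) on log2(normalized count + 1) for genes averaging 5 or more, without covariates, and its P was adjusted over all genes. Shares, levels and correlations were tested by two-sided permutation with 100000 resamples. Alternatives were a pseudocount of 0.5 or of 5, genes averaging at least 20 or no filter, rescaled totals, edgeR 4.0.16 with TMM, DESeq2 1.42.0, study number as covariate and only mice numbered up to 121 or from 197. Leaving out 2 b6/b6 libraries, 2 principal components as covariates, the sets of libraries and the ratio of Rcan1 to Rcan2 were added after the data were seen. The text names the 7 genes, the called and the most abundant gene of each list, tested genes within 1 Mb of Rcan2, and the 3 genes most like Rcan2 and Ppp3ca with a mean of at least 50. Partners with a P of at most 0.05, markers with such a P, and Mag, Thra, Thrb, Dyrk1a and Gsk3b, were named after their values were seen. For 1 list the most abundant gene is not reported here. Members and lists were chosen with earlier results of these data known. The tools were tested on simulated data. Tags carry no molecular identifiers, so depth covers counting error only. Python 3.11.15 and R 4.3.3 were used.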

Additional observations from a re-analysis of the deposited data

How the results depend on the processing

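The absence of a filter changed nothing, since the lowest mean was 6.03. Over the other 11 alternatives, 69 of 77 values for the 7 genes kept their direction and their side of the thresholds, 2 became called and 6 changed sign. The 2 were Ppp3cb by edgeR and by DESeq2, which gave 1 called gene each instead of 0. The changes of sign were Rcan3 in mice numbered from 197 (0.13), Ppp3ca (0.16) and Ppp3r1 (0.13) in mice numbered up to 121, and Ppp3cc with rescaled totals (-0.013), in mice numbered up to 121 (-0.13) and with 2 principal components (-0.10), none with P of at most 0.05. The log2 difference of Rcan2 ran from -0.40 to -0.11 and was never called. Rescaling to equal totals moved the median of all genes from -0.02 to -0.11 and Rcan2 to -0.36 (limma P = 0.0385). The lower Rcan2 share was -3.07 points by medians (permutation P = 0.127), -4.79 in mice numbered up to 121 (permutation P = 0.386), -10.8 in those from 197 (permutation P = 0.0480) and -4.93 without the 2 far libraries. The difference in Ppp3ca share, 3.22 points over all mice, was 12.3 points in mice numbered up to 121 (permutation P = 0.0758). It changed sign by medians (-3.11 points), in mice numbered from 197 (-1.96) and without the far libraries (-1.62). Neighbouring levels that differed were 5 in cast/cast mice alone and 3 over all mice. Near Rcan2, sign changed for Cd2ap in mice numbered up to 121 (0.24), Gpr116 in those from 197 (0.047) and Clic5 with 2 principal components (0.087), and of the called genes Slc25a27, Cyp39a1 and Enpp4 were not called in at least 1 of those sets of mice, while Enpp5 became called with rescaled totals (-0.59, limma P = 3.3e-05) and in mice numbered from 197 (-0.69, limma P = 0.00412). Tcf7l2 was not called with study number as covariate or in mice numbered up to 121. Calls over all genes were 208, and 391 by edgeR, 395 by DESeq2, 312 with study number as covariate, 457 in mice numbered up to 121, 153 in those from 197 and 137 without the far libraries. The causes of these changes were not tested. No paired analysis was made, since each library came from a different mouse and the labels name no pairs of mice. The replicate numbers used here are only names given in sample order.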
